A study of Mus musculus with 16 samples.

Results

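Chromatin accessibility was examined at 10 mouse genes of glucose uptake and glycolysis: the glucose transporters Slc2a1 and Slc2a3, the hexokinases Hk1 and Hk2, the phosphofructokinase subunits Pfkl and Pfkp, the regulatory enzyme Pfkfb3, the lactate dehydrogenase subunit Ldha, the pyruvate dehydrogenase kinase Pdk1 and the transcription factor subunit Hif1a. The genes were chosen by name from 21887 protein-coding genes, and a region belonged to a gene when it overlapped its RefSeq body plus 10 kb on either side. Regions were the merged peaks of 16 ATAC-seq peak lists that were called in at least 2 libraries, and 104 of the 83972 such regions belonged to the 10 genes. Of these 104, the 44 that were called in all 16 libraries could be compared by reads, out of 24955 regions of that kind in the genome. Of the 104 regions, 76 touched the gene's body, and 4 of those outside it lay in the body of another gene.

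The cells came from the bone marrow of male C57Bl/6 mice and had been depleted of T cells (CD3, CD4), B cells (B220), erythroid cells (Ter119) and granulocytes (Gr1). The labels call them haematopoietic stem cells, and give no age of the mice. Diabetic mice had received streptozotocin, a toxin of pancreatic beta cells, and control mice had no treatment. Each mouse sample was divided into a portion cultured for 6 h with 10 ng/mL IL-1β and a portion lysed at once (baseline), so that the cytokine and the culture cannot be told apart. The groups were diabetic IL-1β, diabetic baseline, control IL-1β and control baseline, with 4 libraries each. ATAC-seq cuts open chromatin with the Tn5 transposase, so reads pile up where DNA is accessible; it measures neither transcripts nor glucose use.

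Glucose enters blood cells through facilitative transporters of the Slc2a family and is trapped by hexokinase as glucose 6-phosphate. Phosphofructokinase commits it to glycolysis under the control of fructose 2,6-bisphosphate, which Pfkfb3 makes, and lactate dehydrogenase regenerates NAD+ from the pyruvate formed at the end. Under low oxygen, Hif1a and its partner bind a short DNA core (A or G followed by CGTG) and raise transcription of many of these genes, while Pdk1 keeps pyruvate from being turned into acetyl-CoA. Haematopoietic stem cells in the marrow are known for a reliance on glycolysis, and activated myeloid cells for a further rise of it.

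The sequences just upstream of the start sites are shown because they are the DNA under the start-site regions described below, and HIF is the known regulator of several of these genes. RefSeq start sites of GRCm38.p6, the assembly behind mm10, were at hand for 9 of the 10 genes and 13 starts. A HIF core (ACGTG or GCGTG, read on both strands; ACGTG is also part of the E-box CACGTG) stood within 250 bases upstream of 11 of the 13 starts, against 38.6% of 32851 promoters. Those 11 starts all lay in regions called in every library. Of all 11188 promoters with a start in such a region 60.8% held a core, with a median GC content of 61.6%, against 64.0% for the 11. The upstream bases that lie outside the annotated gene are printed in full for 4 starts, 5′ to 3′ on the gene's strand, with the HIF cores in capitals.
Slc2a1 promoter, chr4:119108495-119108744, plus strand: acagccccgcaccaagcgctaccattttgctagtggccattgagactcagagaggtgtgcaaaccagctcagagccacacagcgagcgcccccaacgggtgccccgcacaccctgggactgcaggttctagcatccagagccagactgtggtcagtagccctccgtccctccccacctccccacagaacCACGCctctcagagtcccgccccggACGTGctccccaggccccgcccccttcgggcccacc
Hk2 promoter, chr6:82774455-82774704, minus strand: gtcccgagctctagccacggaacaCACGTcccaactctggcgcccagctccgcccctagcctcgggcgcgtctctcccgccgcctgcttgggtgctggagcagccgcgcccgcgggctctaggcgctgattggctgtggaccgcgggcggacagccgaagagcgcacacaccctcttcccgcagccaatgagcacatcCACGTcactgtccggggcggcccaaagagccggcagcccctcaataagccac
Pfkl promoter, chr10:78009808-78010057, minus strand: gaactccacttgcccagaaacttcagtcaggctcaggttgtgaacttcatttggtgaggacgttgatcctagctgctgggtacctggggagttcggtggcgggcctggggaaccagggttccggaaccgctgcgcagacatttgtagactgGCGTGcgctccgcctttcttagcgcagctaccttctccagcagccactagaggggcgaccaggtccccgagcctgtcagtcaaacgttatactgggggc
Pdk1 promoter, chr2:71872974-71873214, plus strand: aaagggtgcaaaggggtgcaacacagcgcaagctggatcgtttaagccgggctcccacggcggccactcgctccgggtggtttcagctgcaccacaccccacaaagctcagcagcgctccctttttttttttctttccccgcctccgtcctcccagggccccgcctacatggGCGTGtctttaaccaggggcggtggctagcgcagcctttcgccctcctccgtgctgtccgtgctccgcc

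For the other starts, which lie inside the annotated gene, 30 bases around the densest cores are shown. The Pfkp cores stand 136, 68 and 23 bases before the start, too far apart to share 30 bases, and the farthest is shown.
Hk1 promoter, chr10:62340422-62340451, minus strand: ttggcactgtgccacCACGCGTGaccgcgc
Pfkp promoter, chr13:6648891-6648920, minus strand: tccctaacagaacGCGTGtccatactatcc
Pfkfb3 promoter, chr2:11553973-11554002, minus strand: cctccgcgccgtgACGTGccaagctgtgac
Pfkfb3 promoter, chr2:11502127-11502156, minus strand: ccacccttctctcCACGTGaaagggggctg
Ldha promoter, chr7:46845750-46845779, plus strand: agcctaCACGTGggttcccgCACGTccgct
Ldha promoter, chr7:46847010-46847039, plus strand: ttctgaaattgcgCACGCgcactgccttcc
Hif1a promoter, chr12:73907719-73907748, plus strand: gcacacagacaagCACGTGagcggggcagc

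The start of Ldha at position 46845804 held the most cores, with 5 matches on both strands, 4 of which make up 2 E-boxes. Single motifs were spread as follows: ACGTG stood before 6 of the 13 starts (16.6% of all promoters), GCGTG before 7 (28.2%), the E-box CACGTG before 3 (6.02%) and the GC box GGGCGG before 7 (32.7%). The AP-1 motif TGANTCA stood before 0 of 13 (6.75% of all promoters) and the kappaB motif before 0 (1.41%). The percentages are of all promoters, and single-motif shares among promoters whose start lies in a region called in every library were not counted. The motifs are letter matches in a window, and no factor binding was measured.

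Libraries held 37543 to 72525 peaks, and the median summit of the regions called in every library held 27 to 58 reads. Reads at a summit were recovered from the fold and p that the lists give for it, and are given below scaled so that every library has the same median; log2 changes, standard errors (SE) and p-values come from limma on these reads. A region called in all libraries stood at 7 of 8 stem and early progenitor genes, 6 of 6 granulocyte-monocyte progenitor genes and 10 of 10 mature neutrophil genes, against 63.2% of all 21887 protein-coding genes. The same held for 6 of 7 monocyte, 4 of 4 dendritic cell, 5 of 7 erythroid, 3 of 4 megakaryocyte, 4 of 6 B cell, 4 of 7 T and NK cell and 0 of 4 mast cell and basophil genes. These counts do not tell which cells the libraries held, and Gr1-positive cells had been depleted. The geometric mean of the 26 neutrophil marker regions was 43.7 to 54.3 scaled reads in diabetic IL-1β libraries, 30.0 to 56.2 in diabetic baseline, 54.2 to 60.0 in control IL-1β and 49.6 to 56.1 in control baseline libraries. Replicate 4 of diabetic baseline had the lowest neutrophil value of all, 30.0, and the highest erythroid value, 58.9. It was also lowest for granulocyte-monocyte progenitor (23.0), monocyte (27.5), megakaryocyte (29.9) and T and NK cell regions (42.3). For stem and early progenitor regions it was highest (34.2). This library stands apart in several results below. In marrow, more cells of a type and more open chromatin per cell cannot be told apart.

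With IL-1β, 3 of the 44 regions rose, in Pfkfb3 and Slc2a1, and 1 fell, in Pfkp. In this limma fit of the 4 group means, no region over a listed start site passed, in any of the 9 genes with one. Regions over starts of Hk1, Pfkfb3 and Pfkp passed in other settings given below. Over all 24955 regions 6.42% rose and 3.4% fell, so the members' 3 and 1 of 44 lie near the shares of the genome. The median log2 change of the 44 regions was 0.07, against 0.03 for all regions. Leaving out diabetic baseline replicate 4 gave 6 rises and 4 falls (11.1% and 5.9% of all regions), and leaving out diabetic baseline replicate 1 gave 5 and 1 (7.51% and 3.28%); without diabetic IL-1β replicate 1 or control IL-1β replicate 3 there were 3 and 2. A block for the mouse gave 8 and 2, and 9.62% and 5.19% of all regions. Among the added rises were chr4:119126859-119127643 in Slc2a1 (0.25, limma adjusted p = 0.0407) and chr2:11535296-11535950 in Pfkfb3 (0.22, adjusted p = 0.0421). Another was the region over a start of Hk1 (0.20, limma adjusted p = 0.0332). In that Slc2a1 region the fold as deposited was lower with IL-1β, 6.09 ± 0.968 against 7.47 ± 0.924 at baseline (SD, n = 8 each). The local background under its summit was higher, 8.58 ± 1.06 scaled reads with IL-1β against 5.68 ± 0.858 at baseline.

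Slc2a1 (chr4:119108745-119137330, plus strand) encodes the widely expressed transporter GLUT1, and 2 of its 4 shared regions rose. The region inside the gene at chr4:119125481-119126307, with its summit 17366 bp from the start site, held 57.3, 51.4, 60.1 and 50.7 scaled reads in diabetic IL-1β libraries 1 to 4, against 43.3, 31.8, 30.4 and 20.4 in diabetic baseline libraries. In control mice it held 62.2, 65.0, 50.0 and 55.8 with IL-1β, against 39.3, 35.9, 38.6 and 44.2 at baseline. All 8 IL-1β libraries lay above all 8 baseline libraries, which 1.58% of all regions showed, and the lowest value was that of diabetic baseline replicate 4. The means were 56.5 ± 5.62 with IL-1β and 35.5 ± 7.82 at baseline (SD, n = 8 each). The log2 change was 0.70 (SE 0.12), with a limma adjusted p of 0.000297. It was 0.61 without diabetic baseline replicate 4 (limma adjusted p = 2.36e-05), and on the deposited fold, also scaled so that every library has the same median, 0.31 (adjusted p = 0.0701), which did not pass.

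The second, upstream of Slc2a1 at chr4:119105756-119106115, has its summit 2827 bp before the start site. It held 44.6, 47.7, 35.6 and 35.5 scaled reads in diabetic IL-1β libraries and 20.1, 35.5, 27.2 and 32.0 in diabetic baseline libraries. In control mice it held 47.4, 47.4, 44.0 and 40.3 with IL-1β, against 33.0, 35.1, 31.1 and 27.5 at baseline. The groups met at 35.5, and the IL-1β portion was higher in 8 of 8 mice. Here and below, the share of all regions with the same direction in 8 of 8 mice was not counted. The means were 42.8 ± 5.11 with IL-1β and 30.2 ± 5.09 at baseline (SD, n = 8 each). The log2 change was 0.51 (SE 0.12), with a limma adjusted p of 0.00636, and it was 0.55 without diabetic baseline replicate 4. Both Slc2a1 calls were lost when libraries were scaled by their background reads, a scaling that moves the median of all regions to -0.24: the region in the gene then had a log2 change of 0.43 (adjusted p = 0.0793) and the upstream region 0.24 (adjusted p = 0.33).

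The start of Slc2a1 lay in a taller region, chr4:119108484-119109434, with 75.0 ± 4.30 scaled reads with IL-1β and 68.7 ± 4.43 at baseline (SD, n = 8 each). Its log2 change of 0.13 (SE 0.07, limma adjusted p = 0.262) did not pass. A further region in the gene, chr4:119131238-119131525, was called in 8 of 8 IL-1β libraries and 3 of 8 baseline libraries. Where it was called it held 19.6 to 29.4 scaled reads with IL-1β and 11.2 to 16.8 at baseline.

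Slc2a3 (chr6:122727809-122802363) encodes GLUT3, a high-affinity transporter, and none of its 7 shared regions passed in the fit on reads, with log2 changes of -0.11 to 0.20. Its tallest region, chr6:122810397-122812021, lies outside the gene on the side of higher coordinates and held 139 ± 14.3 scaled reads with IL-1β and 133 ± 26.8 at baseline (SD, n = 8 each). The largest change was 0.20 (SE 0.13, limma adjusted p = 0.354), at chr6:122804473-122804855 on the same side. The region chr6:122741968-122742886 in the gene behaved differently on the scale of the deposited fold: its reads averaged 91.1 ± 10.1 with IL-1β and 89.6 ± 8.40 at baseline, a log2 change of 0.02 (limma adjusted p = 0.912), while the fold gave 0.65 (adjusted p = 8.25e-05), with means as deposited of 11.7 ± 0.768 and 8.30 ± 1.17. The background under its summit, the denominator of the fold, was 6.83 ± 1.22 scaled reads with IL-1β and 10.2 ± 2.29 at baseline (SD, n = 8 each). This region was singled out after its values were seen.

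A region in Slc2a3, chr6:122769908-122770246, was called in 2 of 8 IL-1β libraries and 7 of 8 baseline libraries, with 14.7 to 18.7 scaled reads where called with IL-1β and 12.6 to 21.1 at baseline.

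**Figure D1:**
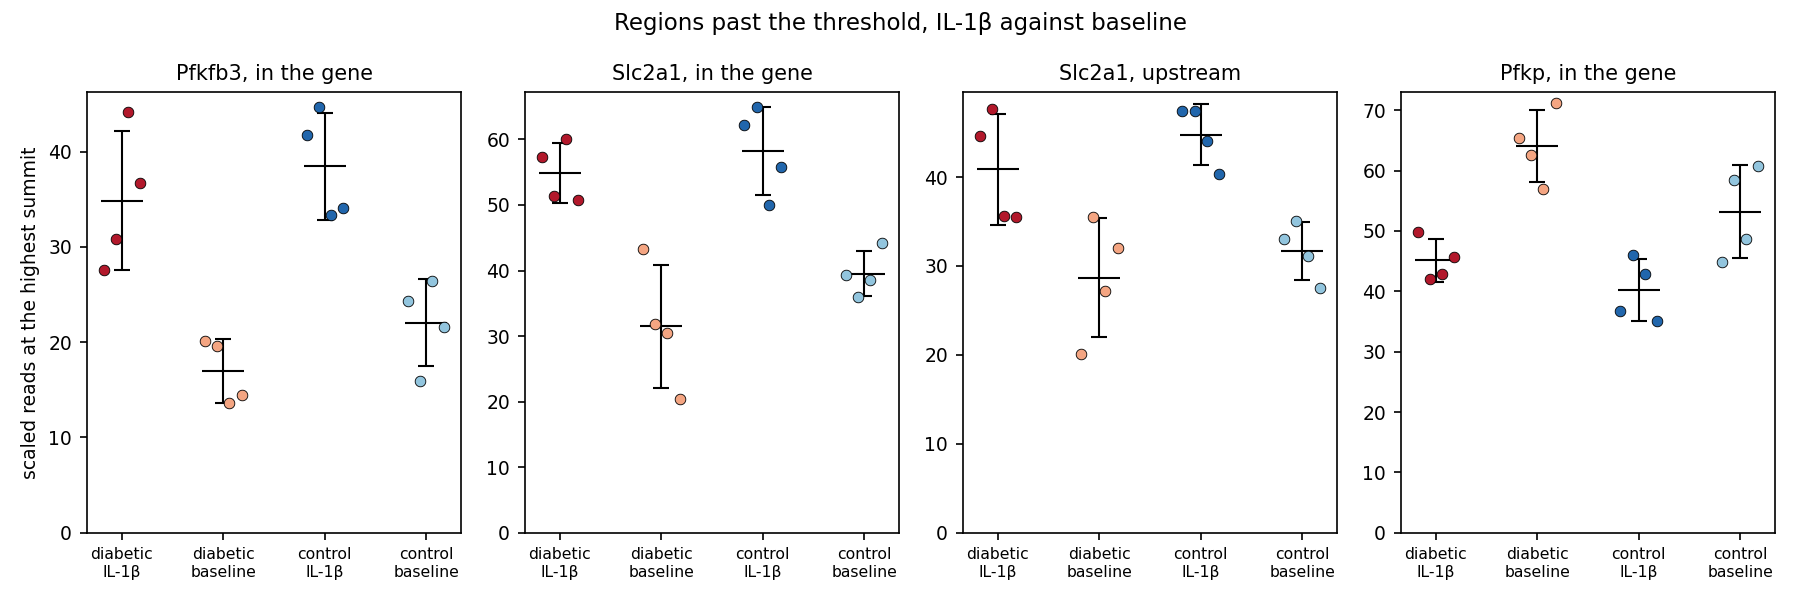
Scaled reads at the highest summit (vertical axes, from 0) of the 4 regions past the threshold, for each library (points) of the 4 groups, with the group mean and SD (lines, n = 4). In the Pfkfb3 region and the Slc2a1 region in the gene the lowest IL-1β libraries, at 27.6 and 50.0, lie above the highest baseline libraries, at 26.4 and 44.2; in Pfkp the IL-1β libraries reach 49.9 and the baseline libraries start at 44.8.

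Hexokinases phosphorylate glucose on entry; Hk1 (chr10:62268855-62379920, minus strand) is the broadly expressed form and Hk2 (chr6:82725025-82774454, minus strand) the inducible form. None of the 3 Hk1 regions or the 5 Hk2 regions called in all 16 libraries passed the threshold. A further Hk1 region, chr10:62299989-62300807, inside the gene with its summit 39915 bp from the start at position 62340421, was called in 15 libraries and so stood outside that fit. It held 13.8, 23.4, 15.9 and 26.6 scaled reads in diabetic IL-1β libraries 1 to 4, against 7.05, 15.0, 9.61 and 10.2 in diabetic baseline libraries. In control mice it held 19.6, 16.2, 19.0 and 19.6 with IL-1β, against 11.8, 6.09 and 12.8 in baseline libraries 1, 3 and 4, which called it. The groups overlap between 13.8 and 15.0. When regions called in at least 12 libraries were fitted (40970 regions, of which 6.23% rose and 3.07% fell), it rose by 0.93 (SE 0.20, limma adjusted p = 0.00298). The Hk1 region over its start at position 62340421, chr10:62339857-62340765, held 107 ± 4.70 scaled reads with IL-1β and 93.3 ± 9.77 at baseline (SD, n = 8 each). Its log2 change of 0.20 (SE 0.07, limma adjusted p = 0.0551) did not pass. It passed with the mouse as a block (adjusted p = 0.0332), with peaks of −log10 q of at least 5 (adjusted p = 0.039) and without diabetic baseline replicate 4 (0.24, adjusted p = 0.00494). It was 0.13 with cyclic loess (adjusted p = 0.0686), 0.07 on the deposited fold (adjusted p = 0.656) and -0.07 with background scaling (adjusted p = 0.674), where the direction turned. Replicate 4 of diabetic baseline held 115 reads there, against 89.6, 100 and 90.5 in the other diabetic baseline libraries.

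The Hk2 start lay in chr6:82774102-82774933, with 114 ± 3.98 scaled reads with IL-1β and 109 ± 5.80 at baseline (SD, n = 8 each; log2 change 0.07, SE 0.06). Its libraries spread little, from 105 to 119 with IL-1β and from 99.5 to 116 at baseline. The largest change of Hk2 was 0.32 (SE 0.15, limma adjusted p = 0.207), at chr6:82740199-82740628, 34044 bp into the gene, where 25.7 ± 4.78 reads stood with IL-1β and 20.6 ± 4.17 at baseline. In both regions that flank the gene, diabetic baseline replicate 4 was the lowest library.

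Phosphofructokinase is built from subunits, of which Pfkl (chr10:77986947-78009807, minus strand) is the liver-type and Pfkp (chr13:6579874-6649060, minus strand) the platelet-type. Pfkp had the fall: the region chr13:6647041-6647548, with its summit 1473 bp inside the gene, held 49.9, 42.1, 42.9 and 45.6 scaled reads in diabetic IL-1β libraries 1 to 4 and 65.4, 62.6, 56.9 and 71.2 in diabetic baseline libraries. In control mice it held 36.8, 46.0, 42.8 and 35.1 with IL-1β, against 44.8, 58.5, 48.7 and 60.8 at baseline. It was lower with IL-1β in all 8 mice, although the groups overlap between 44.8 and 49.9. The means were 42.7 ± 4.83 with IL-1β and 58.6 ± 8.62 at baseline (SD, n = 8 each). The log2 change was -0.45 (SE 0.09), with a limma adjusted p of 0.00171, and it was -0.43 without diabetic baseline replicate 4.

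On the deposited fold scaled to equal medians the same Pfkp region had a log2 change of 0.02 (limma adjusted p = 0.923), while the fold as deposited averaged 5.56 ± 0.412 with IL-1β and 6.06 ± 0.641 at baseline (SD, n = 8 each). The background under its summit was 6.75 ± 0.546 scaled reads with IL-1β and 8.89 ± 0.842 at baseline (SD, n = 8 each), so reads and background were both lower with IL-1β. The neighbouring region chr13:6647663-6648098 was called in 1 of 8 IL-1β libraries and 8 of 8 baseline libraries, where it held 22.0 to 36.3 scaled reads; the IL-1β library that called it held 15.9. In control mice the calls were 0 of 4 with IL-1β and 4 of 4 at baseline, as in 650 of all 83972 regions. In diabetic mice they were 1 of 4 and 4 of 4. This neighbouring region lies between the region that fell and the region over the start.

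The start of Pfkp lay in chr13:6648567-6649319, with 79.9 ± 4.77 scaled reads with IL-1β and 85.5 ± 16.9 at baseline (SD, n = 8 each). Its log2 change by reads was -0.08 (SE 0.08, limma adjusted p = 0.621), whereas the deposited fold gave 0.38 (adjusted p = 0.00609) over a background of 6.33 ± 0.52 with IL-1β and 8.31 ± 0.818 at baseline. Within 1473 bp of the start, reads fell at the inner region and did not pass at the start.

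All 5 regions of Pfkl were called in every library, and none passed. The tallest, chr10:77978253-77979041, lies downstream in the body of another gene, Cfap410, and over that gene's start, with 99.7 ± 8.72 scaled reads with IL-1β and 95.6 ± 6.78 at baseline (SD, n = 8 each). The largest change was -0.49 (SE 0.17, limma adjusted p = 0.074) at chr10:78015385-78015887, 5809 bp before the start, with 18.8 ± 4.82 reads with IL-1β and 26.4 ± 6.31 at baseline. It passed with the mouse as a block (adjusted p = 0.0303), without diabetic baseline replicate 4 (-0.59, adjusted p = 0.0101), with background scaling (adjusted p = 0.0127), and without diabetic IL-1β replicate 1 (adjusted p = 0.0442) or control IL-1β replicate 3 (adjusted p = 0.0376).

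Pfkfb3 (chr2:11471430-11554071, minus strand), whose product makes the activator of phosphofructokinase, had the most shared regions, 11, and the largest change of the 44. The region chr2:11530040-11530588, 23661 bp into the gene from the start at position 11553929, held 27.6, 30.8, 44.2 and 36.7 scaled reads in diabetic IL-1β libraries 1 to 4 and 20.1, 19.6, 13.6 and 14.5 in diabetic baseline libraries. In control mice it held 41.7, 44.7, 33.3 and 34.1 with IL-1β, against 24.3, 15.9, 26.4 and 21.6 at baseline. Every IL-1β library lay above every baseline library, which 1.58% of all regions showed. The means were 36.6 ± 6.32 with IL-1β and 19.5 ± 4.60 at baseline (SD, n = 8 each). The log2 change was 0.93 (SE 0.15), with a limma adjusted p of 0.000162. It was 0.89 without diabetic baseline replicate 4, 0.66 with background scaling (adjusted p = 0.03) and 0.57 on the deposited fold (adjusted p = 0.00642).

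The other 10 Pfkfb3 regions ranged from -0.18 to 0.50. The upper value, 0.50 (SE 0.18, limma adjusted p = 0.0786), was at chr2:11512186-11512588, which passed with the mouse as a block (adjusted p = 0.00947); it was higher with IL-1β in 8 of 8 mice. The tallest region, over the start at position 11553929, chr2:11553247-11554227, held 71.3 ± 5.48 scaled reads with IL-1β and 80.8 ± 5.91 at baseline (SD, n = 8 each). Its log2 change was -0.18 (SE 0.07, limma adjusted p = 0.087), lower with IL-1β in 8 of 8 mice, and it passed with cyclic loess scaling (adjusted p = 0.0264), with background scaling (adjusted p = 0.022) and without diabetic baseline replicate 4 (adjusted p = 0.0329). The second start, at position 11502090, had a change of 0.00 (SE 0.07). The rise in Pfkfb3 was at a region away from both listed starts.

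Of 24 further shared regions between 10 and 50 kb from the genes, 3 rose and 0 fell, against 6.42% and 3.4% of all regions. Past the far end of Pfkfb3 lay 2 of the 3: chr2:11429347-11430041, 41389 bp from the gene, by 0.83 (SE 0.11, limma adjusted p = 1.63e-05), and chr2:11441645-11442387, 29043 bp away, by 0.41 (SE 0.09, adjusted p = 0.00348). They are not members, and no other gene body covers them. A region 15336 bp from Pfkl, chr10:77971110-77971611, rose by 0.51 (SE 0.15, adjusted p = 0.025).

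**Figure D2:**
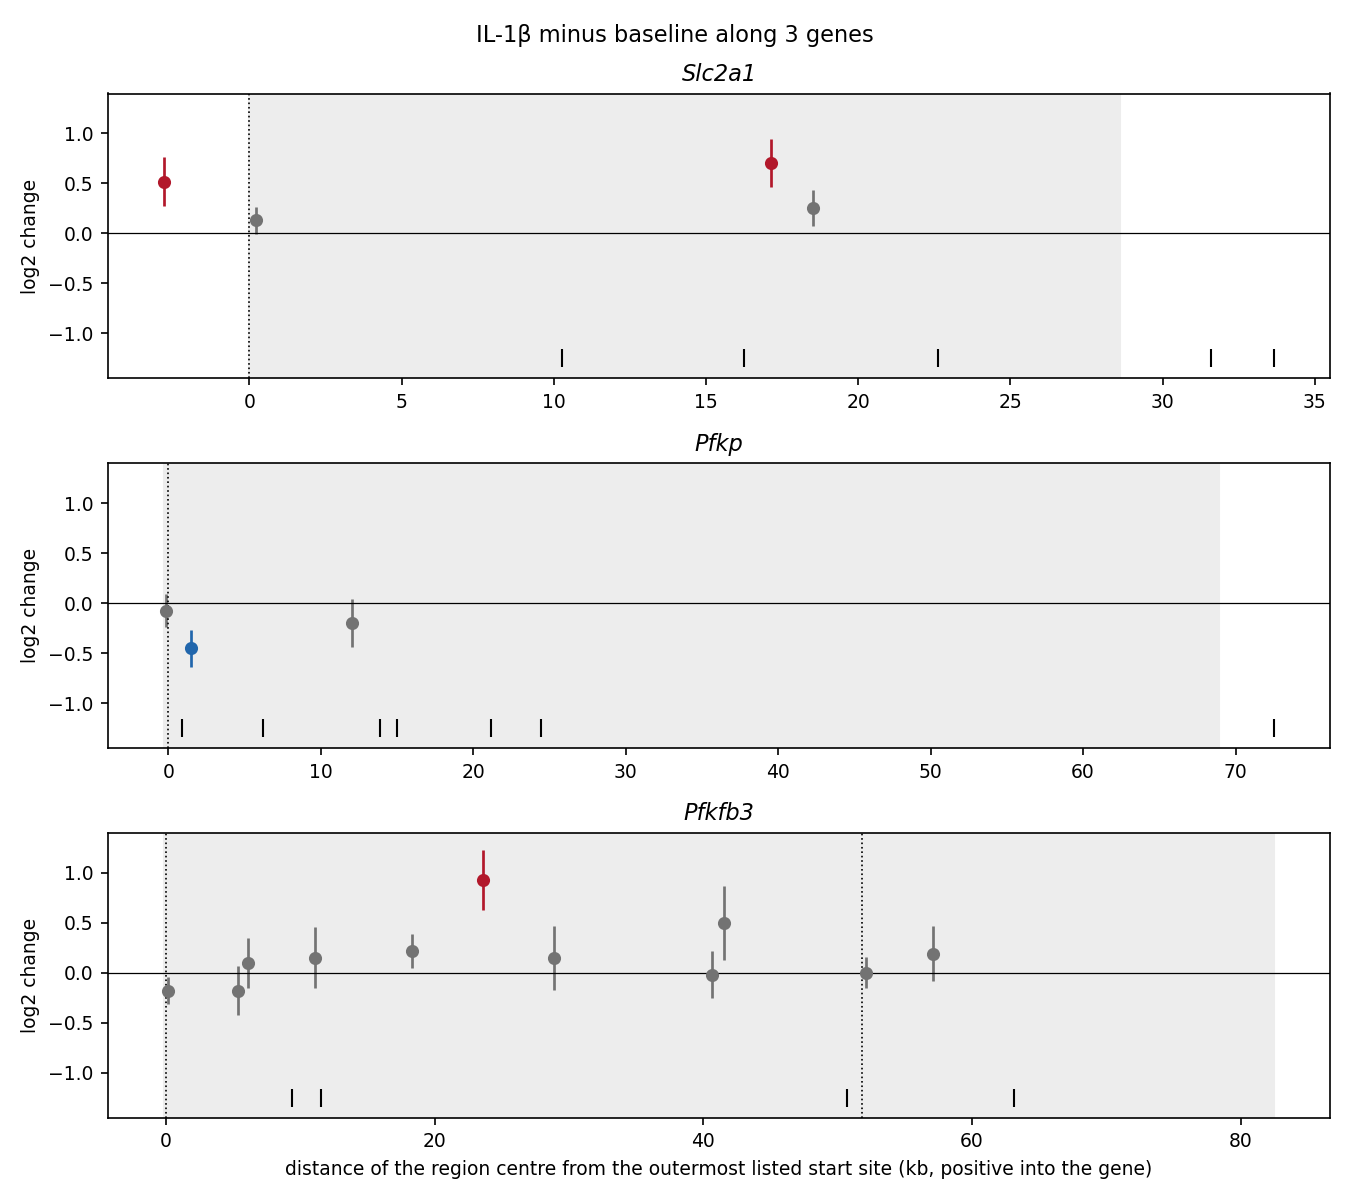
The log2 change of IL-1β minus baseline (vertical axes; bars, 95% interval) against the distance of each region's centre from the start site in kb, for 3 genes; grey bands mark gene bodies, dotted lines start sites, red risen and blue fallen regions, and ticks regions called in fewer than 16 libraries. The risen Pfkfb3 region, at 0.93, stands apart from the regions over both starts, at -0.18 and 0.00, and in Slc2a1 both risen regions flank a start at 0.13.

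Ldha (chr7:46842274-46855627, plus strand) turns pyruvate into lactate, and Pdk1 (chr2:71873215-71903858, plus strand) inhibits the pyruvate dehydrogenase complex. None of the 3 shared regions of Ldha passed. The region over the start at position 46845804, chr7:46845575-46846557, held 72.2 ± 8.42 scaled reads with IL-1β and 72.3 ± 4.72 at baseline (SD, n = 8 each; log2 change -0.01, SE 0.07). The largest change was 0.34 (SE 0.12, limma adjusted p = 0.0651) at chr7:46838815-46839786, 6218 bp before the start, where 42.6 ± 5.81 reads stood with IL-1β and 33.9 ± 5.60 at baseline. It was higher with IL-1β in 8 of 8 mice and passed with the mouse as a block (adjusted p = 0.0243) and without diabetic baseline replicate 1 (0.38, adjusted p = 0.0349). It was 0.14 on the deposited fold (adjusted p = 0.306) and 0.07 with background scaling (adjusted p = 0.778).

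Farther upstream of Ldha, at chr7:46833851-46834156, a region was called in 8 of 8 IL-1β libraries and 2 of 8 baseline libraries. In diabetic mice the calls were 4 of 4 with IL-1β and 0 of 4 at baseline, and in control mice 4 of 4 and 2 of 4. Of all 83972 regions, 346 had 4 of 4 against 0 of 4 in this direction in diabetic mice. Where called, the region near Ldha held 15.9 to 31.7 scaled reads with IL-1β and 12.2 to 13.3 at baseline. Its summit lies 11807 bp before the start site.

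Pdk1 had a single shared region, over its start at position 71873224 (chr2:71872752-71873837), with 110 ± 11.7 scaled reads with IL-1β and 103 ± 14.6 at baseline (SD, n = 8 each; log2 change 0.09, SE 0.09, limma adjusted p = 0.595). Its highest baseline library, diabetic replicate 4, held 131 reads, above the highest IL-1β library at 127. Hif1a (chr12:73901324-73947554, plus strand), the oxygen-regulated subunit of the HIF factor, had its tallest region over the start at position 73907867, chr12:73907432-73908718, with 127 ± 10.7 scaled reads with IL-1β and 121 ± 15.8 at baseline (log2 change 0.08, SE 0.08). The other shared region of Hif1a, chr12:73901176-73901510, at the 5′ edge of the annotated body and 6527 bp before that start, was the lowest of the 44, with 14.3 ± 1.91 reads with IL-1β and 11.4 ± 2.55 at baseline (log2 change 0.34, SE 0.15, adjusted p = 0.184). Downstream of Hif1a, chr12:73953481-73954044 was called in 0 of 8 IL-1β libraries and 5 of 8 baseline libraries, with 6.41 to 11.2 scaled reads where called.

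Across the genes, 12 of the 44 regions covered a start site, 11 of them of a member gene. In the limma fit of the 4 group means, 0 of these 12 rose and 0 fell. Their log2 changes were -0.18 to 0.20, with a lowest limma adjusted p of 0.0551. At an unadjusted p under 0.05 there were 1 higher and 1 lower. Regions over starts of Hk1, Pfkfb3 and Pfkp passed in other settings given above. Over all 8489 start-site regions 3.02% rose and 1.37% fell. Of the 32 other regions 3 rose and 1 fell, against 8.18% and 4.45% of 16466 other regions in the genome. Slc2a3 has no start site listed in the table used.

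**Figure D3:**
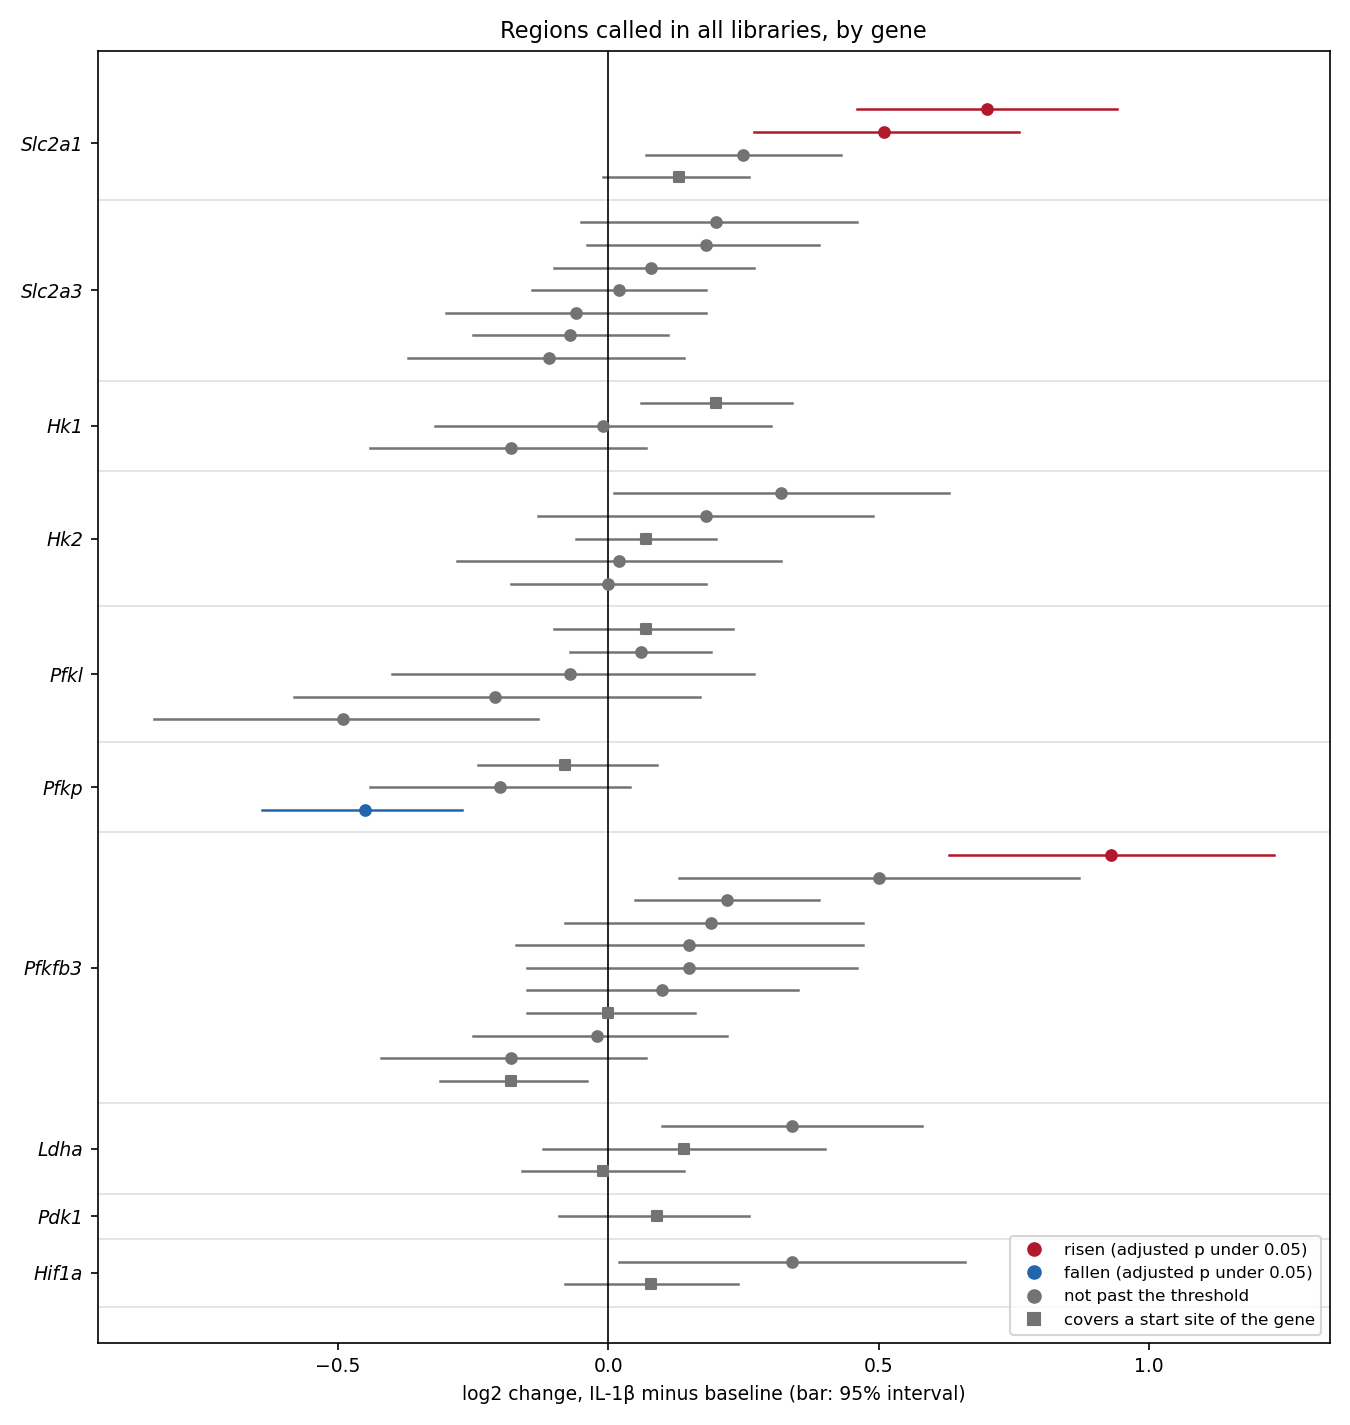
The log2 change of IL-1β minus baseline (horizontal axis; bars, 95% interval) of the 44 regions called in all libraries, grouped by gene, with squares for regions over a start site of the gene (none is listed for Slc2a3). The 3 risen regions (red) lie at 0.51 to 0.93 and the fallen region (blue) at -0.45, while all squares lie between -0.18 and 0.20.

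In diabetic mice alone, 2 of the 44 regions rose with IL-1β (2.19% of all regions) and 1 fell (0.641%). They were the Pfkfb3 region (log2 change 1.04, SE 0.21, limma adjusted p = 0.00577), the Slc2a1 region in the gene (0.85, SE 0.17, adjusted p = 0.00504) and the Pfkp region (-0.50, SE 0.13, adjusted p = 0.0311). In control mice alone, 1 rose (1.78%) and 0 fell (0.97%): the Pfkfb3 region at 0.82 (SE 0.21, adjusted p = 0.0298). The Slc2a1 region in the gene had 0.56 (SE 0.17, adjusted p = 0.0718) and the Pfkp region -0.40 (SE 0.13, adjusted p = 0.1) in control mice. A block for the mouse gave 4 rises and 1 fall in diabetic mice (4.16% and 1.35% of all regions), and 2 rises and 1 fall in control mice (3.63% and 1.91%). With it the Slc2a1 region in the gene (limma adjusted p = 0.0193) and the Pfkp region (adjusted p = 0.048) passed in control mice. In diabetic mice it added the upstream Slc2a1 region (adjusted p = 0.0466) and chr2:11512186-11512588 in Pfkfb3 (adjusted p = 0.0211). Single libraries decided several of these calls. The Pfkp fall in diabetic mice was lost without diabetic IL-1β replicate 2, 3 or 4 or diabetic baseline replicate 2 (adjusted p = 0.0628 to 0.0992). The Pfkfb3 rise in control mice was lost without control IL-1β replicate 1, 2 or 4 or control baseline replicate 2 or 4 (adjusted p = 0.0536 to 0.136). The shared spread also moved with the diabetic baseline libraries: in control mice 2 regions rose without its replicate 1 (2.18% of all regions), and 3 rose and 1 fell without its replicate 4 (4.14% and 2.16%).

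The change with IL-1β was not shown to differ between phenotypes. In the limma test of the difference itself, diabetic minus control, 0 of the 44 regions were higher (0% of all regions) and 0 lower (0%), with 0 and 0 at an unadjusted p under 0.05 and a lowest adjusted p of 1.0. The difference was 0.22 for the Pfkfb3 region (95% interval -0.38 to 0.82), 0.29 for the Slc2a1 region in the gene (-0.19 to 0.78), 0.02 for the upstream Slc2a1 region (-0.47 to 0.52) and -0.10 for Pfkp (-0.48 to 0.27). These intervals are wide enough to hold differences as large as some of the changes.

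Calls over all 104 regions told little by test. Each library called 59 to 89 of them. By Fisher's exact test on 8 against 8 libraries, 0 regions of 83972 passed after adjustment, with a lowest adjusted p of 0.204. At an unadjusted p under 0.05, 2 member regions were gained with IL-1β (1.1% of all regions) and 3 were lost (3.03%): gained near Ldha and in Slc2a1, lost in Pfkp, in Slc2a3 and near Hif1a. The balance turned when every list was cut to the same length: 3 of 75 member regions were then gained and 0 lost, against 2.35% gained and 1.58% lost of 53083 regions.

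**Figure D4:**
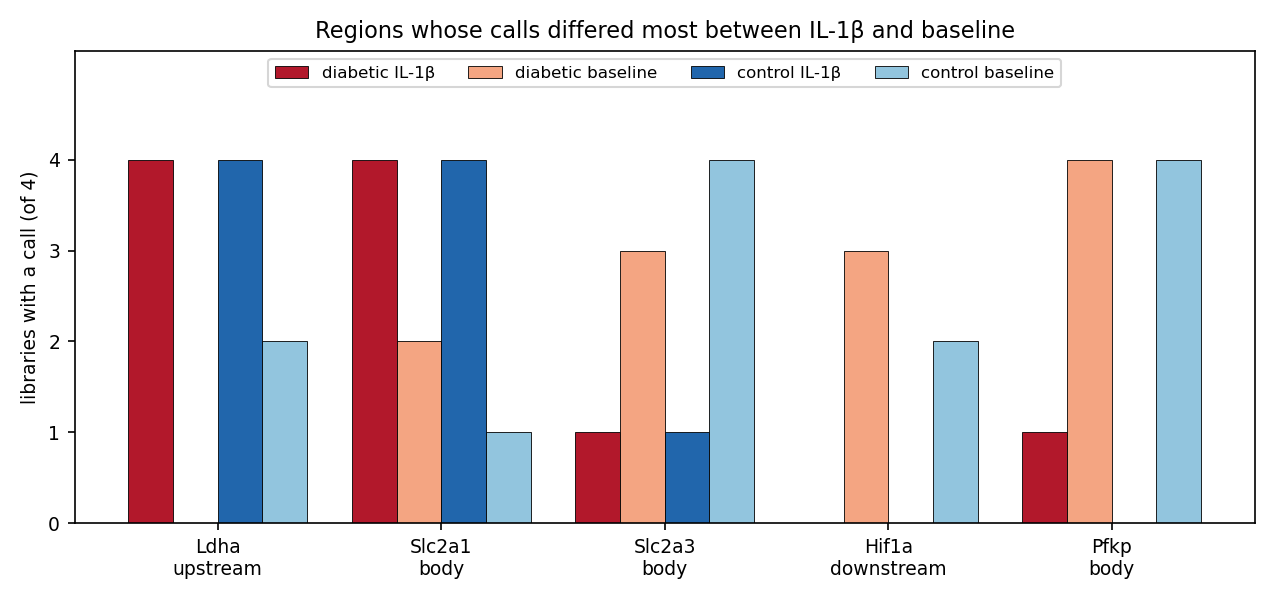
Number of libraries with a call (vertical axis, of 4) in each group, for the 5 regions whose calls differed by at least 5 of 8 libraries between IL-1β and baseline. The region near Ldha was called in 8 IL-1β and 2 baseline libraries, and that in Pfkp in 1 IL-1β and 8 baseline libraries.

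Between diabetic and control mice, no member region passed. After IL-1β, 0 of 44 regions were higher (0% of all regions) and 0 lower (0%) in diabetic libraries by limma, with 0 and 1 at an unadjusted p under 0.05 and a lowest adjusted p of 0.97 over the 44. At baseline, 0 were higher (0%) and 0 lower (0%), with 2 and 6 at an unadjusted p under 0.05 and a lowest adjusted p of 0.423. Over all regions, the unadjusted counts at baseline were 1766 higher and 1177 lower of 24955, and the median log2 difference was 0.07, against -0.01 for the 44.

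The 6 lower regions at baseline lay in Pfkfb3, Hk2 and Slc2a1, and the 2 higher in Pfkp. They are described after their values were seen. The largest difference was at chr2:11524674-11525359 in Pfkfb3, with 21.1, 30.8, 24.0 and 13.1 scaled reads in diabetic baseline libraries and 35.3, 30.9, 37.9 and 33.4 in control baseline libraries. The groups did not overlap, by a gap of 30.8 to 30.9, and replicate 4 of diabetic baseline was the lowest. The log2 difference was -0.69 (SE 0.22, unadjusted p = 0.00429, limma adjusted p = 0.423), and -0.45 without that library. After IL-1β it was -0.18 (95% interval -0.63 to 0.27).

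A further Pfkfb3 region, chr2:11547682-11548007, also had baseline groups that did not overlap, with 23.3 to 26.2 scaled reads in diabetic and 26.5 to 43.4 in control baseline libraries and a difference of -0.38 (limma adjusted p = 0.423). These were 2 lower and 0 higher regions of the 44 without overlap at baseline, against 1.88% lower and 2.47% higher over all regions. After IL-1β there was 0 lower and 1 higher, against 1.24% and 2.33%: the region over the Cfap410 start downstream of Pfkl, with 101, 101, 104 and 118 scaled reads in diabetic IL-1β libraries and 90.8, 97.5, 91.6 and 94.0 in control IL-1β libraries (log2 difference 0.18, 95% interval -0.01 to 0.37).

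The 2 Hk2 regions that flank the gene were each -0.57 at baseline, with unadjusted p of 0.013 downstream (chr6:82715635-82716053) and 0.0109 upstream (chr6:82780342-82781324). The upstream region was also lower after IL-1β, with 29.7, 35.5, 28.2 and 31.7 scaled reads in diabetic and 33.5, 47.4, 53.5 and 43.4 in control libraries (log2 difference -0.49, unadjusted p = 0.0252, limma adjusted p = 0.97). At baseline it held 42.3, 33.6, 32.0 and 17.4 in diabetic libraries and 39.3, 39.3, 48.1 and 52.0 in control libraries. Without diabetic baseline replicate 4 its baseline difference was -0.31, and that of the downstream region -0.37.

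The Slc2a1 region in the gene was -0.37 at baseline and -0.18 without that library. In Pfkp the region over the start was 0.33 (unadjusted p = 0.00716) and the inner region 0.27 (unadjusted p = 0.0425), and 0.21 and 0.22 without it. With background scaling, which moves the median of all regions at baseline to -0.15, the Pfkp start was 0.11 (unadjusted p = 0.565) and the inner region 0.05 (unadjusted p = 0.818), while the first Pfkfb3 region was -0.91 (unadjusted p = 0.00206) and both Hk2 regions -0.79. Leaving out replicate 4 of diabetic baseline brought each of the 8 differences nearer to 0, and 6 of the 8 then missed an unadjusted p of 0.05. Neutrophil, granulocyte-monocyte progenitor and monocyte markers, among others, were lowest in the same library, and erythroid markers highest. The part of cell composition in these differences was not tested.

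By calls, 0 of the 104 member regions were called in 4 of 4 diabetic and 0 of 4 control libraries, or the reverse. Over all 83972 regions the shares were 0.0238% higher and 0.255% lower in diabetic libraries at baseline, and 0.0393% higher and 0.0417% lower after IL-1β.

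**Figure D5:**
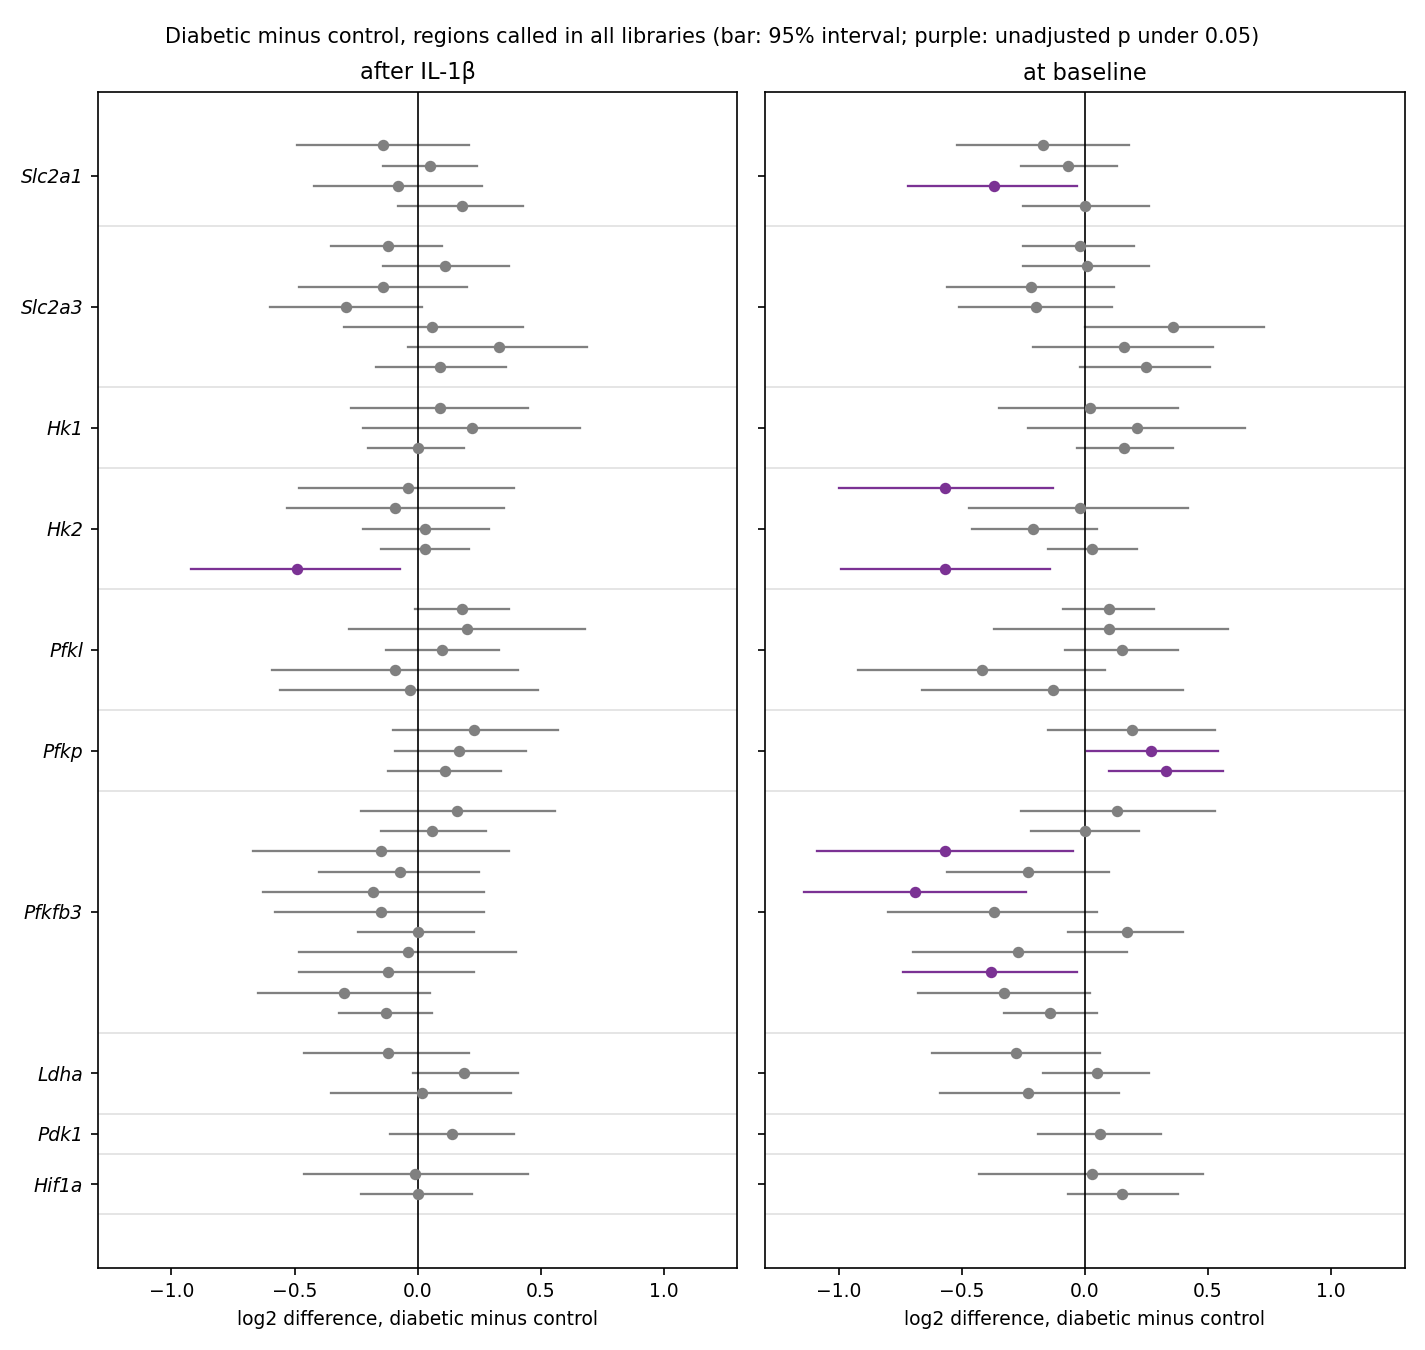
The log2 difference, diabetic minus control (horizontal axes; bars, 95% interval), of the 44 regions called in all libraries after IL-1β and at baseline, grouped by gene and ordered by position. Purple marks an unadjusted p under 0.05, with 1 region after IL-1β and 8 at baseline, of which 0 passed after adjustment.

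Other genes of the pathway were read from the same fit. Of 51 further genes, 47 had a shared region, 111 in all, of which 3 rose and 4 fell with IL-1β. A region was assigned when it overlapped the gene body plus 10 kb, and whether other genes cover the 111 regions was not examined. The rises lay in the windows of enolases, which make phosphoenolpyruvate. The Eno1 region had 68.3 ± 8.78 scaled reads with IL-1β and 55.0 ± 5.34 at baseline (SD, n = 8 each, log2 change 0.31, limma adjusted p = 0.025). In the Eno3 window 2 neighbouring regions, chr11:70653239-70654332 and chr11:70654437-70654820, rose by 0.37 and 0.26 (adjusted p = 0.0221 and 0.0352). The falls were at the monocarboxylate transporter Slc16a7, by 0.71 on the log2 scale (adjusted p = 0.00162), Pfkfb4, a relative of Pfkfb3, by 0.53 (adjusted p = 0.0112), the mitochondrial pyruvate carrier Mpc2, by 0.45 (adjusted p = 0.0253), and the pyruvate dehydrogenase subunit Pdha1, by 0.26 (adjusted p = 0.028).

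By role, 0 of 18 regions of other transporters rose and 1 fell, and 0 of 3 of other hexokinases changed. Of upper glycolysis 0 of 16 changed, and of lower glycolysis 3 of 18 rose, 2 of them the neighbouring regions in the Eno3 window. Of the other Pfkfb and Tigar regions 1 of 10 fell, and of lactate and pyruvate fate 2 of 15 fell. Of oxygen sensing (Arnt, Epas1, Vhl, the Egln prolyl hydroxylases and others) 0 of 17 changed, and of other regulators such as Myc and Txnip 0 of 14. All of these shares can be read against 6.42% risen and 3.4% fallen in the genome. Between diabetic and control mice 0 of the 111 passed, after IL-1β or at baseline.

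In the lists of cell type markers, the counts can be read against the same 6.42% and 3.4%. Of the 26 mature neutrophil regions 4 rose and 1 fell, of 12 granulocyte-monocyte progenitor regions 3 rose and 1 fell, and of 12 monocyte and macrophage regions 3 rose and 0 fell. The geometric mean of monocyte regions was 35.4 to 40.7 scaled reads in diabetic IL-1β libraries and 27.5 to 35.2 in diabetic baseline libraries. It was 38.4 to 41.6 in control IL-1β and 33.7 to 36.6 in control baseline libraries. The IL-1β libraries thus lay above the baseline libraries within each phenotype, in diabetic mice by a gap of 35.2 to 35.4. How many sets of regions show such a separation was not counted. The stem and early progenitor regions had 0 rises and 0 falls among 9, and the erythroid regions 0 and 0 among 12. Megakaryocyte regions had 0 and 0 among 6, B cell regions 1 and 0 among 7, T and NK cell regions 0 and 0 among 7, and dendritic cell regions 1 and 0 among 13. The geometric mean of the 44 member regions was 46.0 to 47.6 in diabetic IL-1β, 39.9 to 45.3 in diabetic baseline, 45.6 to 48.2 in control IL-1β and 44.3 to 45.6 in control baseline libraries. Here too the diabetic IL-1β libraries lay above the diabetic baseline libraries, and the control groups met at 45.6. The part of cell composition in the Pfkfb3, Slc2a1 and Pfkp changes was not tested.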

How the data were processed

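ATAC-seq peak lists of 16 libraries were used, 1 per library and none pooled. The submitters' processing notes name MACS2 2.1.1, Bowtie2 2.2.6, edgeR, DiffBind 2.4.8, FastQC 0.11.3 and Trim Galore 1.8, without roles, and build mm10. Tn5 shifting and duplicate removal: not given in the sources used here. The authors' deposited columns are a score, a fold (the ratio of summit reads over local background) and −log10 p and −log10 q values; the lowest −log10 q was 1.30. Depth in total reads is not given.

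Peaks that overlapped or touched were merged, and regions called in at least 2 libraries kept. Summit reads were recovered from fold and −log10 p (at least 99.999% of lines came out whole within 0.001), and log2 reads scaled to equal medians, as was the fold where it replaced reads. Regions called in all 16 libraries were fitted with limma 3.58.1 (R 4.3.3) as 4 group means with trended variance, tested on simulated data, with Benjamini-Hochberg adjustment over all 24955 at 0.05. Calls were tested with Fisher's exact test, two-sided. Genes and start sites came from RefSeq, GRCm38.p6; intron and exon are not given there. Described in full were member regions past the threshold, the tallest and the most changed region of each gene, and regions whose calls differed by at least 5 of 8. Members, lists and tests were chosen with earlier results of these data known.

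Same-numbered libraries come from the same mouse sample within a phenotype, which the series' design gives; their deviations from group means correlated at -0.0362 to 0.4193. The block is therefore given where it changes a call. Whether each number is a separate animal rests on the design text, and p-values measure the spread between these samples.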

Additional observations from a re-analysis of the deposited data

Results flagged for a closer look

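In 4 of the 76 combinations of described region and group, 1 library lay far from the other 3 by Dixon's ratio, close to the 1 in 20 that chance flags. Replicate 2 of control IL-1β held 114 scaled reads over the start of Hk1, against 104 to 105 in the others. Replicate 3 of control baseline held 64.3 over the start of Ldha, against 73.0 to 73.6. Replicate 4 of diabetic baseline held 131 over the start of Pdk1, against 95.3 to 98.1. Replicate 2 of diabetic baseline held 62.6 over the start of Slc2a1, against 68.3 to 68.9. All 4 regions lie over start sites. None passed in the fit of 4 group means to the 24955 regions over all 16 libraries, while the Hk1 region passed in other settings given above.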

How the results depend on the processing

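Each fit was repeated with 1 choice changed. The Pfkfb3 rise over both phenotypes passed in all 23 alternatives, with log2 changes of 0.57 to 0.98, and the Pfkp fall in 22 of 23. Scaling by background reads left 1 rise and 3 falls (0.813% and 9.39% of all regions; 0 and 0 in diabetic mice, 0 rises in control mice), the deposited fold scaled to equal medians 4 rises and 0 falls (3.92% and 2.2%; 0 and 0 in diabetic mice, 2 rises in control mice), and cyclic loess 3 and 2. On that fold 2 Pfkp regions changed sign, to 0.02 at the inner region and 0.38 at the start. The mouse as replicate block gave 8 rises and 2 falls (4 and 1 in diabetic, 2 and 1 in control mice), and a window of 50 kb 6 rises (2 in control mice). Peaks with −log10 q of at least 5 gave 1 rise in diabetic mice. Leaving out 1 library gave 3 to 6 rises and 1 to 4 falls, the most without diabetic baseline replicate 4 (5 rises without replicate 1); in diabetic mice 2 to 3 rises and 0 to 1 falls, and in control mice 0 to 3 rises and 0 to 1 falls. The cause of these shifts was not tested. For calls at an unadjusted p under 0.05, the stricter peaks gave 1 of 81 member regions gained and 5 lost, against 0.869% and 3.78% of all regions. The paired McNemar test with the mouse as replicate block gave 1 and 1 of 104, against 0.513% and 0.923%. Lists of equal length gave 3 and 0 of 75, against 2.35% and 1.58%. Where peaks had to cover the larger part of a region there were 3 and 3 of 103, against 1.19% and 4.03%. For diabetic against control and the difference between phenotypes all alternatives gave 0 member regions. Depth limits the low regions most, such as that at the 5′ edge of Hif1a with 11.4 scaled reads at baseline.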
